A study of Mus musculus with 4 samples.

Results

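Genes encoded in the nucleus for subunits of the mitochondrial respiratory chain and of ATP synthase were examined in mouse dendritic cells. They were chosen by symbol, as the Nduf genes of complex I, the Sdh genes of complex II, the Uqcr genes of complex III, the Cox4 to Cox8 genes of complex IV and the Atp5 genes of complex V. Of 18021 genes in the table, 82 matched, and the 79 with a mean of at least 1 FPKM over the 4 libraries were kept. FPKM counts fragments per kilobase of transcript per 1e6 fragments, so levels of different genes can be compared per length. By complex there were 35 genes for complex I, 4 for complex II, 8 for complex III, 15 for complex IV and 15 for complex V. Ndufa4 was counted with complex IV, to which its protein is now assigned. The remaining 2, Atp5s and Atp5sl, carry the symbol but are not counted as subunits of the complex.

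The cells were bone marrow-derived dendritic cells of C57BL/6 mice, grown in GM-CSF and IL4 over 5 days and matured for 24 h with lipopolysaccharide at 100 ng/ml, in every group. They were then transfected with si-Lnc-Dpf3, named for lnc-Dpf3, a long non-coding RNA, or with the control siRNA si-NC. CCR7L, the ligands CCL19 and CCL21 of the chemokine receptor CCR7, was given for 12 h, and the Med groups were left unstimulated. The groups were therefore si-Lnc-Dpf3 with CCR7L, si-Lnc-Dpf3 unstimulated, si-NC with CCR7L and si-NC unstimulated, each with 1 library and no replicate. The labels give neither age nor sex, nor the number of animals behind a culture. The question was how the RNA levels of the respiratory chain differ between the siRNAs and with the ligands, in a study concerned with glycolysis and migration of these cells.

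Complexes I and II pass electrons from NADH and succinate to ubiquinone, complex III passes them to cytochrome c, and complex IV passes them to oxygen. Complexes I, III and IV pump protons, and complex V, the ATP synthase, uses the proton gradient to make ATP. All but complex II also contain subunits encoded in mitochondrial DNA, which were not analysed here. Dendritic cells activated through Toll-like receptors are known for a shift from oxidative phosphorylation towards glycolysis.

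The target lnc-Dpf3 was not analysed here, so its depletion was not checked. Summed FPKM per library lay between 474610 and 500607, and depth estimated from the spacing of low FPKM values was 20.1 to 20.9 in units of 1e6 fragments. All 12 listed dendritic cell markers passed the limit of 1 FPKM, among them Itgax at 24.7 to 33.3 FPKM and Ccr7 at 615 to 808 FPKM. Their summed FPKM was 9782 and 6608 in si-Lnc-Dpf3 cells with and without CCR7L, and 10390.4 and 8039 in si-NC cells with and without CCR7L. Summed over 15 neutrophil markers, FPKM was 17360 with CCR7L and 17405 without it in si-Lnc-Dpf3 cells, against 12471 and 11986 in si-NC cells. The 10 markers of cycling cells summed to 339 and 365 FPKM in si-Lnc-Dpf3 cells, against 263 and 269 FPKM in si-NC cells. In limma's averages, 4 dendritic cell markers fell and 0 rose with si-Lnc-Dpf3, while 8 neutrophil and 9 cycling markers rose and 0 fell. With CCR7L, 5 dendritic cell markers rose and 3 fell, and 0 neutrophil and 0 cycling markers passed. Of 7 macrophage and 8 mast cell and basophil markers tested, 2 each fell with si-Lnc-Dpf3, 1 each fell with CCR7L and 0 rose. For erythroid, lymphoid and stromal cells 1 of 5, 2 of 7 and 1 of 5 markers reached 1 FPKM, with sums of at most 7.98 FPKM, and no marker of any list was at 0 in all libraries. These marker differences stand beside the comparisons below, and their part in them was not tested. In bulk RNA, fewer cells of a type and less RNA per cell cannot be told apart.

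The respiratory chain genes were expressed at levels that differed little between libraries. Together they measured 8645 and 7563 FPKM in si-Lnc-Dpf3 cells with and without CCR7L, and 8331 and 8063 FPKM in si-NC cells with and without CCR7L. These sums are 1.73%, 1.59%, 1.69% and 1.64% of all FPKM in those libraries, in the same order. The unstimulated si-Lnc-Dpf3 library was thus the lowest and the CCR7L-treated si-Lnc-Dpf3 library the highest, with both si-NC libraries between them. The same held gene by gene for a majority. Among the 79 genes, 49 (62.0%) were highest in si-Lnc-Dpf3 with CCR7L, against 22.1% of the 11041 genes tested. For 47 genes (59.5%) the lowest value was in unstimulated si-Lnc-Dpf3 cells, against 24.0% of the genes tested.

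**Figure D1:**
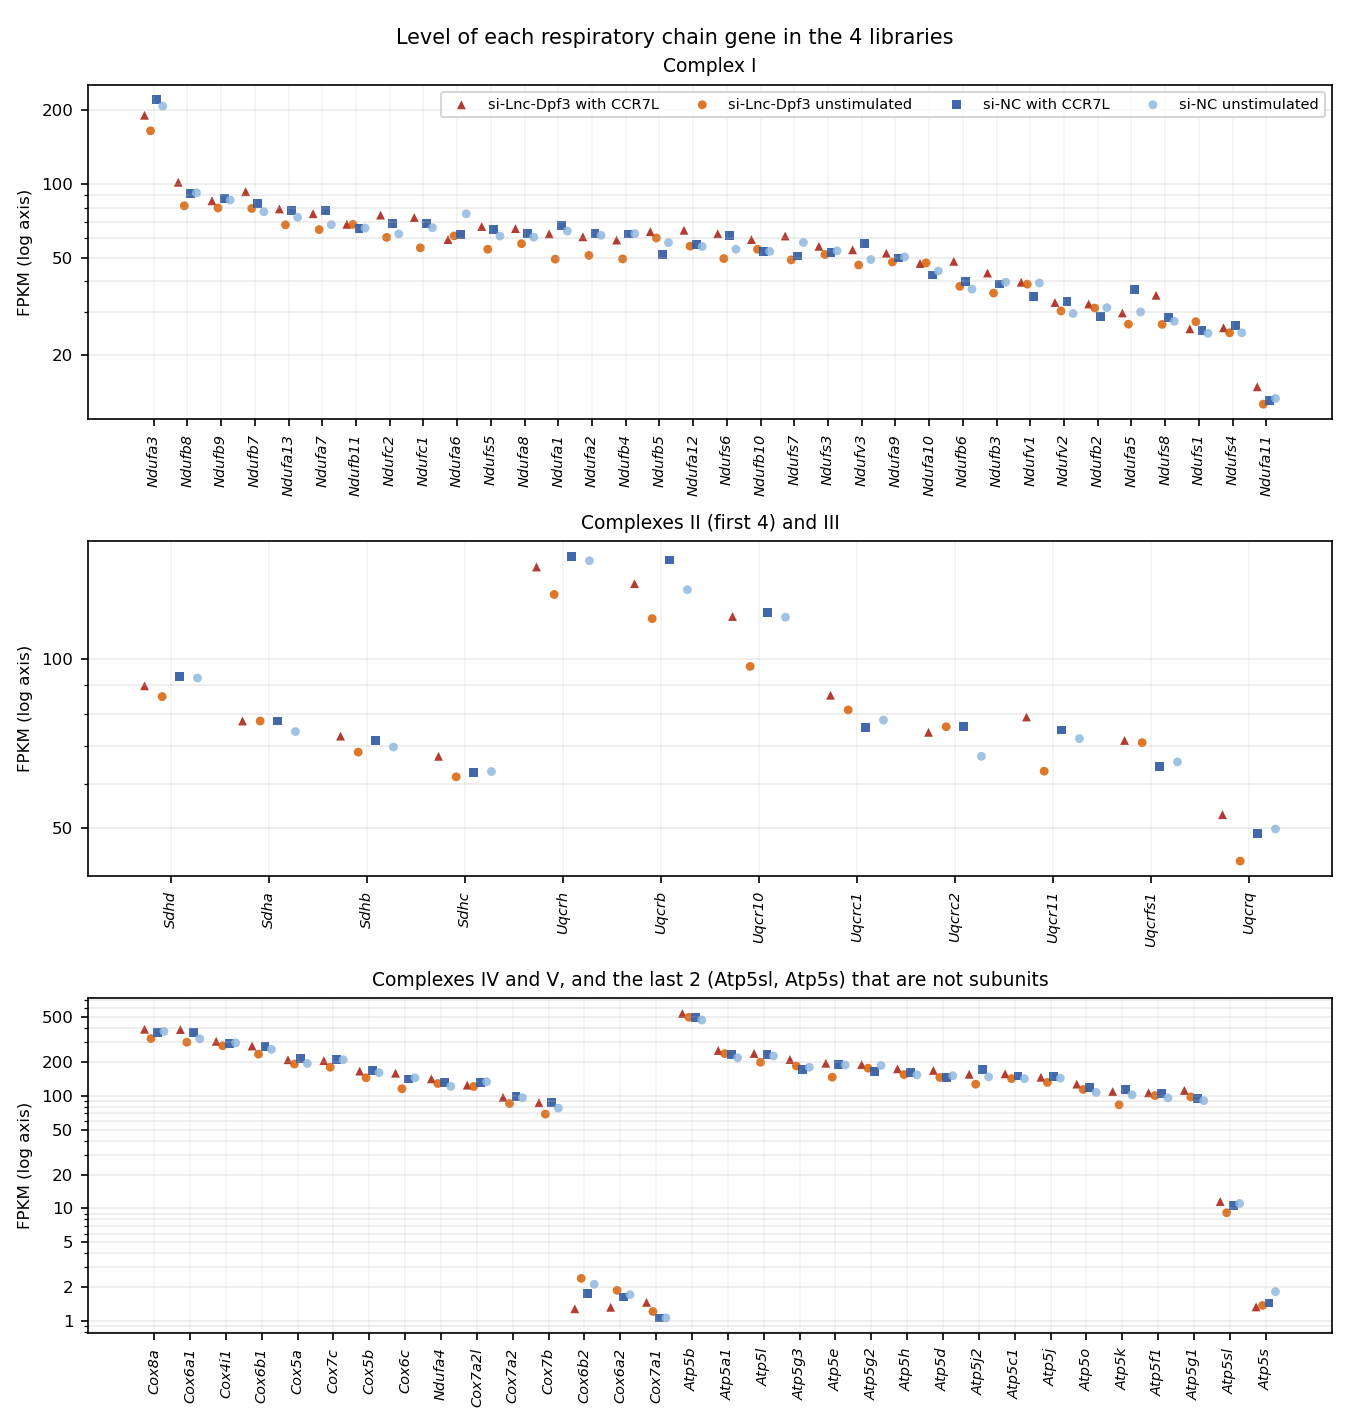
FPKM (log axes) of 78 of the 79 genes in the 4 libraries, with genes ordered by mean level within a complex. Triangles and circles in red and orange are the si-Lnc-Dpf3 libraries with and without CCR7L, squares and circles in blue the si-NC libraries, and most genes lie close together, with the orange circle lowest for 47 of them.

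Per length, catalytic and small complex IV and V genes were the most abundant. Atp5b, the catalytic beta subunit of ATP synthase, measured 536 and 497 FPKM in si-Lnc-Dpf3 cells with and without CCR7L, and 498 and 469 FPKM in si-NC cells with and without CCR7L. Cox8a, a small subunit of cytochrome c oxidase, had 389 and 321 FPKM in si-Lnc-Dpf3 cells and 362 and 372 FPKM in si-NC cells, in the same order of CCR7L and unstimulated. The highest genes of the other complexes on this scale were Ndufa3 of complex I, with a mean of 196 FPKM, Uqcrh of complex III with 145 FPKM and Sdhd of complex II with 90.3 FPKM. Just inside the limit of 1 FPKM were Cox7a1 with a mean of 1.21, Atp5s with 1.5 and Cox6a2 with 1.64 FPKM. Just outside were Cox4i2 with 0.26, Cox8b with 0.0675 and Ndufa4l2 with 0.05 FPKM.

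The first comparison asked how the genes responded to CCR7L. Averaged over both siRNAs, the ATP synthase genes Atp5j2 and Atp5k and the complex I gene Ndufs6 rose with CCR7L. These calls depended on the fit. The test was limma's moderated test on log2(FPKM + 1) with siRNA and stimulation as additive factors and adjustment over all 11041 genes. It gives the average change of a factor over the levels of the other and sets it against the interaction, its 1 residual degree of freedom, and a spread borrowed from other genes. It does not measure the spread between replicate cultures. At an adjusted p under 0.05, 3 of the 79 genes rose and 0 fell with CCR7L, against 2.93% of all genes higher and 3.11% lower. The 3 genes are 3.80% of the 79, a share near that of all genes. At an unadjusted p under 0.05, limma gave 20 of the 79 higher and 2 lower, against 7.64% of all genes higher and 8.41% lower. With every library scaled to equal totals the count was 5 higher and 2 lower, against 3.16% and 4.99% of all genes.

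Atp5j2 encodes subunit f of the membrane part of ATP synthase. It measured 155 and 127 FPKM in si-Lnc-Dpf3 cells with and without CCR7L, and 171 and 147 FPKM in si-NC cells with and without CCR7L. Both stimulated libraries lay above both unstimulated ones. The share of all genes that separate in this way was not computed, here or for Atp5k below. Both genes were chosen because they passed the fit, so the separation adds no support. The average CCR7L log2 change was 0.25 ± 0.06 (SE, limma adjusted p = 0.0434), higher in both siRNA groups.

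Atp5k encodes subunit e, which sits beside subunit f and takes part in dimers of the synthase. Its level was 109 and 83.1 FPKM in si-Lnc-Dpf3 cells with and without CCR7L, and 114 and 102 FPKM in si-NC cells with and without CCR7L. Again the stimulated libraries were the higher ones, and the unstimulated si-Lnc-Dpf3 library stood lowest. The change was 0.27 ± 0.07 (SE, limma adjusted p = 0.0469).

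Ndufs6 encodes an accessory subunit of complex I needed for its assembly. It had 62.7 and 49.6 FPKM in si-Lnc-Dpf3 cells with and without CCR7L, and 61.6 and 54.2 FPKM in si-NC cells with and without CCR7L. The stimulated values nearly coincided between the siRNAs. The change was 0.26 ± 0.07 (SE, limma adjusted p = 0.0436). All 3 calls stood close to the threshold and were lost in 7 of 11 alternative fits each. Without a filter, without the mean-variance trend and with a single factor, limma's lowest adjusted p of all 79 genes was 0.406, 0.113 and 0.254. The other 4 fits each left out 1 library and also had a single factor, with 1 library in a group. They cannot decide whether the calls hold. Where the calls passed, limma's adjusted p was as low as 0.00972 for Ndufs6, 0.00450 for Atp5j2 and 0.00724 for Atp5k.

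The promoters of these 3 genes are shown because they are the members that passed limma for CCR7L. The windows run from 250 bases before to 50 after the annotated start, on the minus strand of RefSeq's GRCm38.p6. Capitals mark matches to the cores of motifs known for factors of nuclear respiratory genes: GCATGCG for NRF1, CCGGAAG for ETS factors such as GABP, and ATGGCGG for YY1, sought on both strands. Atp5j2, whose gene spans 145183704 to 145191541 on chromosome 5, has its window at chr5:145191492-145191791. Atp5k (108433246 to 108434399 on chromosome 5) has its window at chr5:108434350-108434649. Ndufs6 (73319876 to 73328482 on chromosome 13) has its window at chr13:73328433-73328732.
Atp5j2: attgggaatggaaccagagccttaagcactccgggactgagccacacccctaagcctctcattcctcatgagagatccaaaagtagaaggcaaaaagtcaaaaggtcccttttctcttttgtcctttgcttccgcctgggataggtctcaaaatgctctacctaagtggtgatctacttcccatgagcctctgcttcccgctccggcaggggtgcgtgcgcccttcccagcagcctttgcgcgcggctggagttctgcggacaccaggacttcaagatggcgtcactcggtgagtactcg
Atp5k: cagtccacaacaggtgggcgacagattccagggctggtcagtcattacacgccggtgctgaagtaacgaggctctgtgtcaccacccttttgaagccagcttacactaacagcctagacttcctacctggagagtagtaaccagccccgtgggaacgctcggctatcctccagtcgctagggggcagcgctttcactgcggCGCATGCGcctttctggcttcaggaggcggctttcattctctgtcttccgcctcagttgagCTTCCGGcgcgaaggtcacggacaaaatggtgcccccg
Ndufs6: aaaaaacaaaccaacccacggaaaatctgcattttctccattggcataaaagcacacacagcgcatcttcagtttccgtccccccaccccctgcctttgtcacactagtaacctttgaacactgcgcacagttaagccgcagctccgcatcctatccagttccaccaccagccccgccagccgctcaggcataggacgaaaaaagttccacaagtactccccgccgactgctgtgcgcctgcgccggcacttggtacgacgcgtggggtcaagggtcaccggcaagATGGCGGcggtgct

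The Atp5j2 window held 0 matches. In Atp5k the NRF1 core was matched on both strands at 1 palindromic place, where the matches overlap, and the ETS core was matched once, on the opposite strand. Ndufs6 had 1 match to the YY1 core, downstream of the annotated start. Of the 79 genes, 67 had a window in the table. The NRF1 core was in windows of 11 genes (16.4%), against 7.54% of 8942 genes tested with a window and 4.01% of all 27025 genes in the promoter table. The ETS core was in 16 (23.9%, against 21.7% and 9.93%) and the YY1 core in 11 (16.4%, against 9.99% and 4.69%). Any of these motifs was in 31 genes (46.3%), against 34.2% of the tested genes and 16.6% of all. A match describes letters in the window and no binding was measured.

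**Figure D2:**
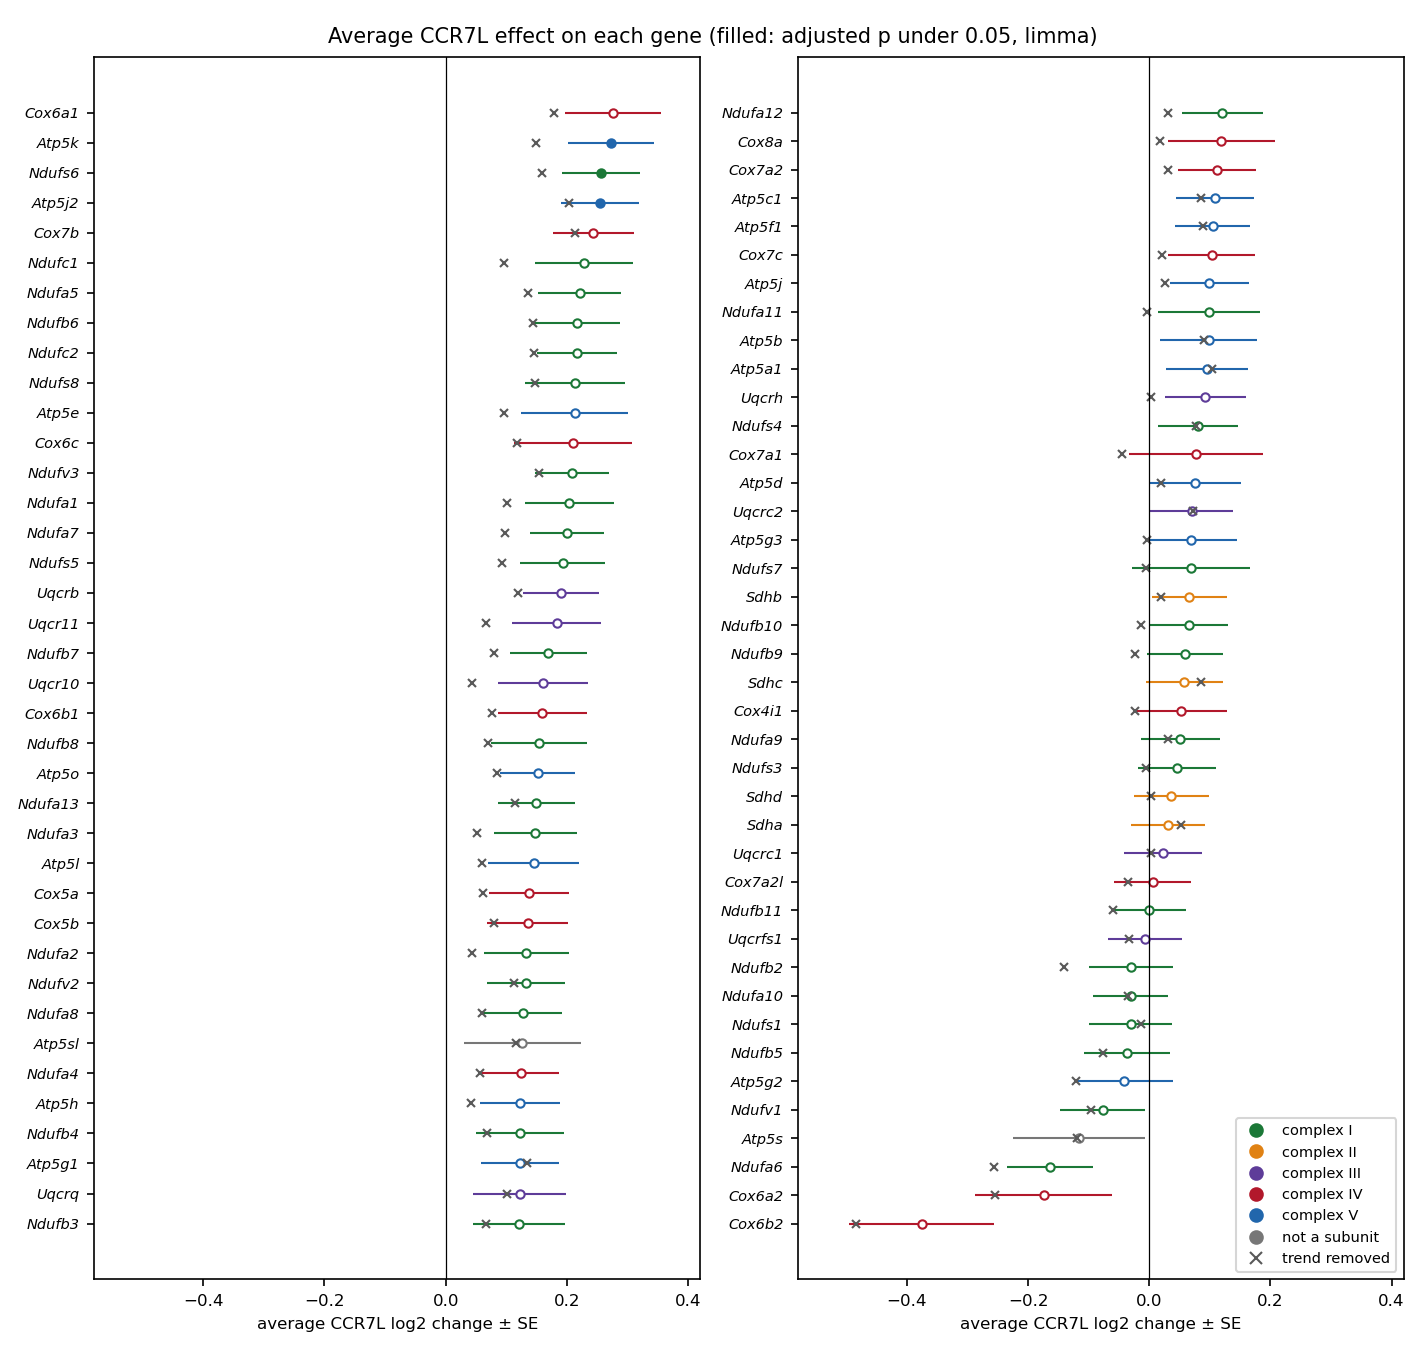
Average CCR7L log2 change of 78 of the 79 genes with its limma standard error, coloured by complex and ordered by size from the top left. Filled circles mark the 3 genes with an adjusted p under 0.05, crosses the change after removal of the length and GC trend, and 66 of 78 circles lie to the right of 0.

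The CCR7L ratios as deposited were larger in si-Lnc-Dpf3 cells than in si-NC cells, a contrast that shrank when a trend with transcript length and GC content was removed. In si-Lnc-Dpf3 cells 72 of the 79 genes were higher with CCR7L and 7 lower, where 44.3% of all genes were higher and 55.4% lower. The median log2 ratio of the 79 was 0.18, against -0.02 over all genes tested. In si-NC cells 49 were higher with CCR7L and 29 lower, where 46.1% of all genes were higher and 53.4% lower, and the medians were 0.03 for the 79 and -0.01 for all genes. Under equal totals, 63 of the 79 were higher with CCR7L in si-Lnc-Dpf3 cells and 48 in si-NC cells, against 3135 and 4945 of all 11041 genes. Under median-ratio scaling the counts were 73 and 54, against 5496 and 5498 of all genes. With the trend removed they were 54 in each, against 49.6% of all genes in si-Lnc-Dpf3 cells and 50.9% in si-NC cells. Averaged over the siRNAs the median was 0.12 for the 79, with 66 higher and 13 lower. It was -0.02 for all genes, of which 42.7% were higher. Single libraries allow no test of these ratios, so a 95% counting interval from the estimated depth was used as a yardstick, with a median half-width of 0.10 to 0.11 on the log2 scale. It covers counting error only, and the share of all genes outside it was not computed, so counts by this interval have no background. In si-Lnc-Dpf3 cells 54 genes lay above this interval and 0 below it, and in si-NC cells 23 lay above and 5 below. No gene reached a 2-fold difference, where 0.19% of all genes were 2-fold higher and 0.29% lower in si-Lnc-Dpf3 cells, and 0.19% higher and 0.263% lower in si-NC cells.

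The second comparison asked how si-Lnc-Dpf3 cells differed from si-NC cells. In limma's average over both stimulations 0 of the 79 genes rose and 0 fell, against 2.33% of all genes higher and 2.04% lower. At an unadjusted p under 0.05, 2 were higher and 8 lower, against 9.85% and 7.60% of all genes, and the lowest adjusted p was 0.0525, for Ndufa3. With CCR7L, 51 genes were higher in si-Lnc-Dpf3 cells and 27 lower, where 52.4% of all genes were higher and 47.1% lower. Their median log2 ratio was 0.05, against 0.01 over all genes. In unstimulated cells 25 were higher with si-Lnc-Dpf3 and 54 lower, where 54.3% of all genes were higher and 45.3% lower, and the medians were -0.07 for the 79 and 0.02 for all genes. By the counting interval, 28 genes were above and 4 below with CCR7L, and 8 above and 33 below in unstimulated cells. The shares of all genes were not computed here either. At 2-fold there was again no gene of the 79, where 0.0362% of all genes were higher and 0.0362% lower with CCR7L, and 0.0362% higher and 0.0543% lower in unstimulated cells.

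The si-Lnc-Dpf3 ratio changed sign between the stimulations for many genes. Higher with CCR7L but lower in unstimulated cells were 31 genes, and 4 showed the reverse. Another 20 were higher and 23 lower in both. The ratio with CCR7L exceeded the unstimulated ratio for 67 of the 79 genes, against 48.5% of all genes, with a median difference of 0.14 against -0.01. The model has no degree of freedom left to test this difference, and the CCR7L ratios of the siRNA groups are built from the same 4 libraries.

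By complex, the unstimulated si-Lnc-Dpf3 ratio as deposited was lowest for complexes III and IV. The median log2 ratio to si-NC in unstimulated cells was -0.18 for complex III, -0.14 for complex IV, -0.07 for complex I, -0.03 for complex II and 0.00 for complex V. Under equal totals the complex II median was 0.02, so its sign depends on the scaling, and the complex V median lay between -0.03 and 0.06 over the scalings. After removal of the length and GC trend these medians were -0.03 for complex III, -0.0061 for complex IV, 0.02 for complex I, -0.0050 for complex II and 0.06 for complex V. For CCR7L in si-Lnc-Dpf3 cells the medians were 0.21 for complex I, 0.18 for complex III, 0.18 for complex IV, 0.17 for complex V and 0.08 for complex II. All 15 complex V genes were higher with CCR7L there, as were 32 of 35 for complex I, 7 of 8 for complex III, 13 of 15 for complex IV and 4 of 4 for complex II. In si-NC cells the CCR7L medians lay between 0.01 for complex IV and 0.08 for complex V. With the trend removed, the medians in si-Lnc-Dpf3 cells were 0.08 for complex V, 0.06 for complex I, 0.03 for complexes III and IV and 0.01 for complex II.

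**Figure D3:**
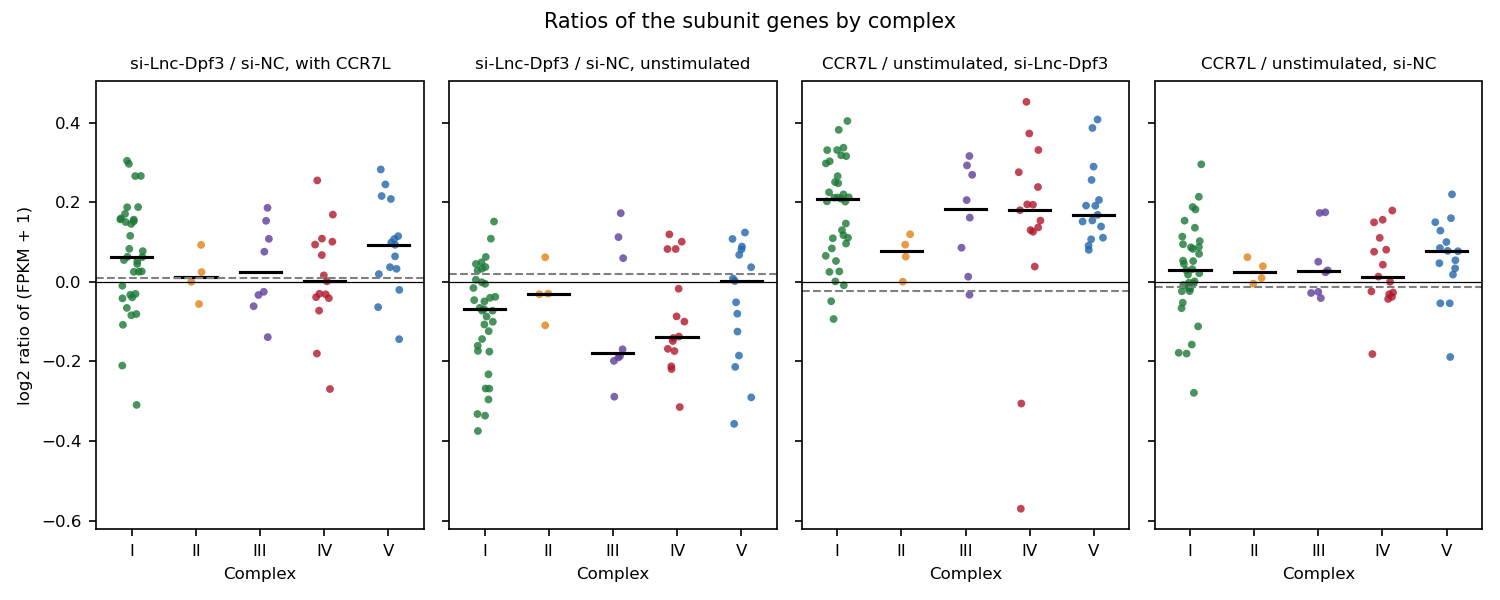
Log2 ratios of (FPKM + 1) of the subunit genes by complex, in the 4 comparisons between single libraries. Each point is a gene, black bars are medians of a complex and the dashed grey line is the median of all genes tested, and the bars lie farthest above it for CCR7L in si-Lnc-Dpf3 cells.

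Within complex I, core subunits carry the electrons and accessory subunits surround them. The 7 core genes had a median log2 ratio of 0.08 for si-Lnc-Dpf3 against si-NC with CCR7L and -0.04 in unstimulated cells, where the 28 accessory genes had 0.06 and -0.08. None of the core genes passed limma in either average. Ndufs7, an iron-sulphur subunit at the ubiquinone site, was the core gene that differed most between the contexts. It measured 61.3 and 49.0 FPKM in si-Lnc-Dpf3 cells with and without CCR7L, and 50.8 and 57.7 FPKM in si-NC cells with and without CCR7L. The CCR7L-treated library was thus the higher one under si-Lnc-Dpf3 and the lower one under si-NC, each beyond the counting interval.

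For the other core genes the contexts differed less. Ndufs8, an iron-sulphur subunit near Ndufs7, had 35.1 and 26.7 FPKM in si-Lnc-Dpf3 cells with and without CCR7L, and 28.4 and 27.5 FPKM in si-NC cells with and without CCR7L. A single library, si-Lnc-Dpf3 with CCR7L, stood above the rest, and the average CCR7L change of 0.21 ± 0.08 did not pass (limma adjusted p = 0.216). Ndufv1, the flavin subunit that accepts electrons from NADH, had 39.7 and 39.0 FPKM in si-Lnc-Dpf3 cells with and without CCR7L, and 34.7 and 39.4 FPKM in si-NC cells with and without CCR7L. Here the si-NC library with CCR7L was the low one. Ndufs1, the largest iron-sulphur subunit, ranged from 24.6 to 27.4 FPKM and Ndufv2, which also carries an iron-sulphur cluster, from 29.6 to 33.0 FPKM. Neither differed by more than 0.15 on the log2 scale between 2 libraries of a comparison, apart from Ndufv2 with CCR7L under si-NC at 0.154 and Ndufs1 in unstimulated cells at 0.151.

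Among accessory genes of complex I, Ndufa3 and Ndufa1 had the lowest si-Lnc-Dpf3 averages. Ndufa3 measured 191 and 165 FPKM in si-Lnc-Dpf3 cells with and without CCR7L, and 221 and 208 FPKM in si-NC cells with and without CCR7L. The siRNA groups did not overlap, and the average si-Lnc-Dpf3 log2 change was -0.27 ± 0.07, just short of the threshold (limma adjusted p = 0.0525). Ndufa1 had 62.6 and 49.3 FPKM in si-Lnc-Dpf3 cells, against 67.5 and 64.3 FPKM in si-NC cells, each with and without CCR7L. Its groups did not overlap either, with a change of -0.24 ± 0.07 (limma adjusted p = 0.102). Groups of so few libraries can separate by chance. The share of all genes that do was not computed, here or for the genes below.

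At the other end, Ndufb5 had 63.9 and 60.2 FPKM in si-Lnc-Dpf3 cells with and without CCR7L, and 51.6 and 57.6 FPKM in si-NC cells with and without CCR7L, so that both si-Lnc-Dpf3 libraries were above both si-NC libraries. The change of 0.18 ± 0.07 did not pass (limma adjusted p = 0.203). Ndufb6 stood at 48.3 and 38.2 FPKM in si-Lnc-Dpf3 cells and 40.02 and 37.2 FPKM in si-NC cells, with and without CCR7L. Its library with both si-Lnc-Dpf3 and CCR7L was the highest. Ndufc1, the shortest transcript of all at 315 bases, had 73.0 and 54.9 FPKM in si-Lnc-Dpf3 cells and 68.8 and 66.3 FPKM in si-NC cells, with and without CCR7L. Ndufa6, an accessory subunit of the matrix arm, was the complex I gene with the lowest CCR7L average, at -0.16 ± 0.07 (limma adjusted p = 0.277). Its 59.3, 61.4 and 62.1 FPKM in si-Lnc-Dpf3 with CCR7L, si-Lnc-Dpf3 unstimulated and si-NC with CCR7L stood against 75.6 FPKM in unstimulated si-NC cells, so 1 library set the difference.

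Complex II, succinate dehydrogenase, is the only complex of the chain encoded wholly in the nucleus. Its 4 genes had log2 ratios from -0.11 to 0.12 over the 4 comparisons, the narrowest range of the complexes. It is also the complex with the fewest genes here, and a range widens with the number of genes. Sdha, the flavin subunit that oxidises succinate, had 77.6 FPKM in each si-Lnc-Dpf3 library and in si-NC with CCR7L, and 74.3 FPKM in unstimulated si-NC cells. Sdhb, the iron-sulphur subunit, ranged from 68.3 to 73.0 FPKM, and the membrane anchors Sdhc and Sdhd from 61.7 to 67.2 FPKM and from 85.8 to 93.3 FPKM. For Sdhc the CCR7L-treated si-Lnc-Dpf3 library was highest, and for Sdhd both si-NC libraries were above both si-Lnc-Dpf3 libraries. None passed limma in either average, and the lowest unadjusted p of the 4 genes was 0.209, for Sdhd in the siRNA average.

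In complex III, the Rieske and core protein genes lay above si-NC and the small subunit genes below it in unstimulated si-Lnc-Dpf3 cells. The former have transcripts of 1363 to 1896 bases, and the small ones named below 434 to 547 bases. With the length and GC trend removed, the log2 ratios of the former were 0.11 to 0.18. Those of the small ones named below went from between -0.29 and -0.17 to between -0.11 and -0.0067. The length contrast does not cover Uqcrq, another small subunit gene, named here after its values were seen. Its transcript has 1521 bases, and its ratio went from -0.19 to -0.14. Uqcrfs1, the Rieske iron-sulphur protein, had 71.7 and 71.0 FPKM in si-Lnc-Dpf3 cells with and without CCR7L, and 64.4 and 65.6 FPKM in si-NC cells with and without CCR7L. The core protein gene Uqcrc1 had 86.3 and 81.2 FPKM in si-Lnc-Dpf3 cells, against 75.7 and 77.9 FPKM in si-NC cells, with and without CCR7L. For both genes the si-Lnc-Dpf3 libraries were above the si-NC libraries, with averages of 0.13 ± 0.06 and 0.12 ± 0.06 that did not pass (limma adjusted p = 0.295 and 0.359). The other core protein gene, Uqcrc2, ranged from 67.2 FPKM in unstimulated si-NC cells to 75.9 FPKM in si-NC cells with CCR7L.

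The small subunits named here had their lowest value in unstimulated si-Lnc-Dpf3 cells. Uqcrb had 136 and 118 FPKM in si-Lnc-Dpf3 cells with and without CCR7L, and 150.3 and 133 FPKM in si-NC cells with and without CCR7L. Uqcr10 stood at 119 and 97.1 FPKM in si-Lnc-Dpf3 cells and 121 and 119 FPKM in si-NC cells, with and without CCR7L. In Uqcr10 the unstimulated si-Lnc-Dpf3 library alone was low. Their averages for si-Lnc-Dpf3, -0.15 ± 0.06 and -0.16 ± 0.07, did not pass (limma adjusted p = 0.229 and 0.307). Uqcrh, the acidic hinge protein gene, had 146 and 130.5 FPKM in si-Lnc-Dpf3 cells and 152 and 149.9 FPKM in si-NC cells, with and without CCR7L. Uqcr11 had 78.9 and 63.2 FPKM in si-Lnc-Dpf3 cells and 74.8 and 72.2 FPKM in si-NC cells, with and without CCR7L.

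Several complex IV subunits have a common isoform and another restricted to tissues such as heart, skeletal muscle, lung or testis. The common isoform made up nearly all of the FPKM of its family in every library, at 99.8% to 100.0% for Cox4i1, 99.4% to 99.7% for Cox6a1, 98.98% to 99.5% for Cox6b1 and at least 99.9% for Cox8a and Ndufa4. Cox4i2 and Ndufa4l2, known as targets of the hypoxia-inducible factor HIF1, stayed below the limit. Cox4i2 was at 0.69 and 0.14 FPKM in si-Lnc-Dpf3 cells with and without CCR7L, and 0.14 and 0.07 FPKM in si-NC cells with and without CCR7L. Ndufa4l2 was at 0.10 FPKM and listed at 0 in the si-Lnc-Dpf3 libraries with and without CCR7L, and at 0.05 FPKM in both si-NC libraries. Cox8b was listed at 0 in 3 libraries and at 0.27 FPKM in si-Lnc-Dpf3 with CCR7L. In the Cox7a family Cox7a2l held 55.8% to 58.3%, Cox7a2 41.1% to 43.5% and the muscle isoform Cox7a1 0.464% to 0.661%.

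Cox6a1, a regulatory subunit, had the highest CCR7L average of all 79 genes without passing, at 0.28 ± 0.08 (limma adjusted p = 0.0750). It measured 386 and 298 FPKM in si-Lnc-Dpf3 cells with and without CCR7L, and 362 and 320 FPKM in si-NC cells with and without CCR7L. The stimulated libraries lay above the unstimulated ones, each beyond the counting interval. Cox7b had 86.7 and 68.7 FPKM in si-Lnc-Dpf3 cells and 86.6 and 77.6 FPKM in si-NC cells, with and without CCR7L, and an average of 0.24 ± 0.07 (limma adjusted p = 0.0614).

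Cox4i1, a subunit that joins the catalytic core early in assembly, had values within a narrow range, although 3 of its 4 ratios lay beyond the counting interval. It measured 304 and 277 FPKM in si-Lnc-Dpf3 cells with and without CCR7L, and 289.6 and 295 FPKM in si-NC cells with and without CCR7L. Ndufa4 had 141 and 128 FPKM in si-Lnc-Dpf3 cells and 131 and 121 FPKM in si-NC cells, with and without CCR7L. Both si-Lnc-Dpf3 values exceeded the si-NC values of the same stimulation. For Cox7c, a small subunit, they were 205 and 179 FPKM in si-Lnc-Dpf3 cells against 210.2 and 208 FPKM in si-NC cells, and for Cox7a2l 124 and 121 FPKM against 130.5 and 133 FPKM, with and without CCR7L. In these last 2 genes every si-Lnc-Dpf3 value was below every si-NC value, and neither passed limma.

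Cox6b2 and Cox6a2, isoforms of testis and of muscle, were the lowest of the 79 genes in the CCR7L average. Cox6b2 stood at 1.29 and 2.40 FPKM in si-Lnc-Dpf3 cells with and without CCR7L, and 1.76 and 2.13 FPKM in si-NC cells with and without CCR7L. Its average of -0.38 ± 0.12 did not pass (limma adjusted p = 0.114). Cox6a2 was at 1.33 and 1.88 FPKM in si-Lnc-Dpf3 cells and 1.64 and 1.72 FPKM in si-NC cells. No ratio of these 2 genes lay outside the counting interval, which is wide at such levels.

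In complex V, the genes of the alpha and beta subunits of the catalytic head had values above si-NC in both si-Lnc-Dpf3 libraries. Those of the membrane subunits e and f had values below it. Atp5l, also of the membrane part, is named here after its values were seen. Its log2 ratio to si-NC was -0.19 in unstimulated cells and 0.04 with CCR7L. The alpha and beta transcripts have 2471 and 1916 bases, and those of Atp5k, Atp5j2 and Atp5l 371, 955 and 544. With the length and GC trend removed, ratios were 0.08 to 0.12 for Atp5a1 and Atp5b and -0.16 to -0.10 for Atp5k and Atp5j2. Those of Atp5l were -0.05 and 0.04. Of the 15 genes, 0 passed limma for the siRNA (3 at an unadjusted p under 0.05, against 17.5% of all genes). Atp5a1, the alpha subunit, had 252 and 236 FPKM in si-Lnc-Dpf3 cells with and without CCR7L, and 232 and 217 FPKM in si-NC cells with and without CCR7L. Both it and Atp5b were above si-NC at the same stimulation and above the unstimulated cells at the same siRNA, each time beyond the counting interval, with log2 ratios of 0.08 to 0.12.

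The c subunit is made from Atp5g1, Atp5g2 and Atp5g3, whose mature proteins are identical. Of the summed FPKM of these genes, Atp5g1 held 19.9% to 21.9%, Atp5g2 37.1% to 40.8% and Atp5g3 39.3% to 41.1% over the 4 libraries. Atp5g1 had 111 and 97.5 FPKM in si-Lnc-Dpf3 cells with and without CCR7L, and 93.9 and 90.4 FPKM in si-NC cells with and without CCR7L, so the siRNA groups did not overlap. Its si-Lnc-Dpf3 average was 0.18 ± 0.06 (limma adjusted p = 0.177). Atp5g3 stood at 209.6 and 183 FPKM in si-Lnc-Dpf3 cells and 172 and 179 FPKM in si-NC cells, again without overlap. Atp5g2 had 189 and 175 FPKM in si-Lnc-Dpf3 cells, against 163 and 186 FPKM in si-NC cells, with and without CCR7L, and the stimulated si-NC library was the low one. The genes have related sequences, and many genes of the chain have processed pseudogenes. RSEM, named in the submitters' processing notes, divides fragments shared between copies by estimation, so small differences between copies are uncertain.

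Atp5j2 and Atp5k, the genes that rose with CCR7L, were also the lowest of complex V in the siRNA average, at -0.18 ± 0.07 and -0.18 ± 0.07 (limma adjusted p = 0.168 and 0.217). Outside the complex, Atp5s, a coupling factor gene, had 1.34 and 1.38 FPKM in si-Lnc-Dpf3 cells and 1.45 and 1.83 FPKM in si-NC cells, with and without CCR7L.

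In the unstimulated siRNA comparison and in CCR7L under si-Lnc-Dpf3, the ratios of these genes ran along a trend with transcript length that was also seen over all genes. The members are short, with a median transcript length of 755 bases (315 to 3171), against 2819 bases over all genes tested. Transcripts under 1000 bases made up 51 of the 79, against 6.87% of the genes. Median GC content was 51.7%, against 50.2%. Across all 10863 genes with a length, Spearman's rho between length and the CCR7L log2 ratio was -0.46 in si-Lnc-Dpf3 cells and 0.01 in si-NC cells. For si-Lnc-Dpf3 against si-NC it was -0.12 with CCR7L and 0.36 in unstimulated cells. Among the 79 genes the values were -0.52, -0.11, 0.15 and 0.47 in the same order. With GC content, rho over all genes was 0.27, -0.22, 0.27 and -0.22, and over the 79 genes 0.20, -0.21, 0.25 and -0.08. These correlations are across genes that share 4 libraries, and describe them.

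**Figure D4:**
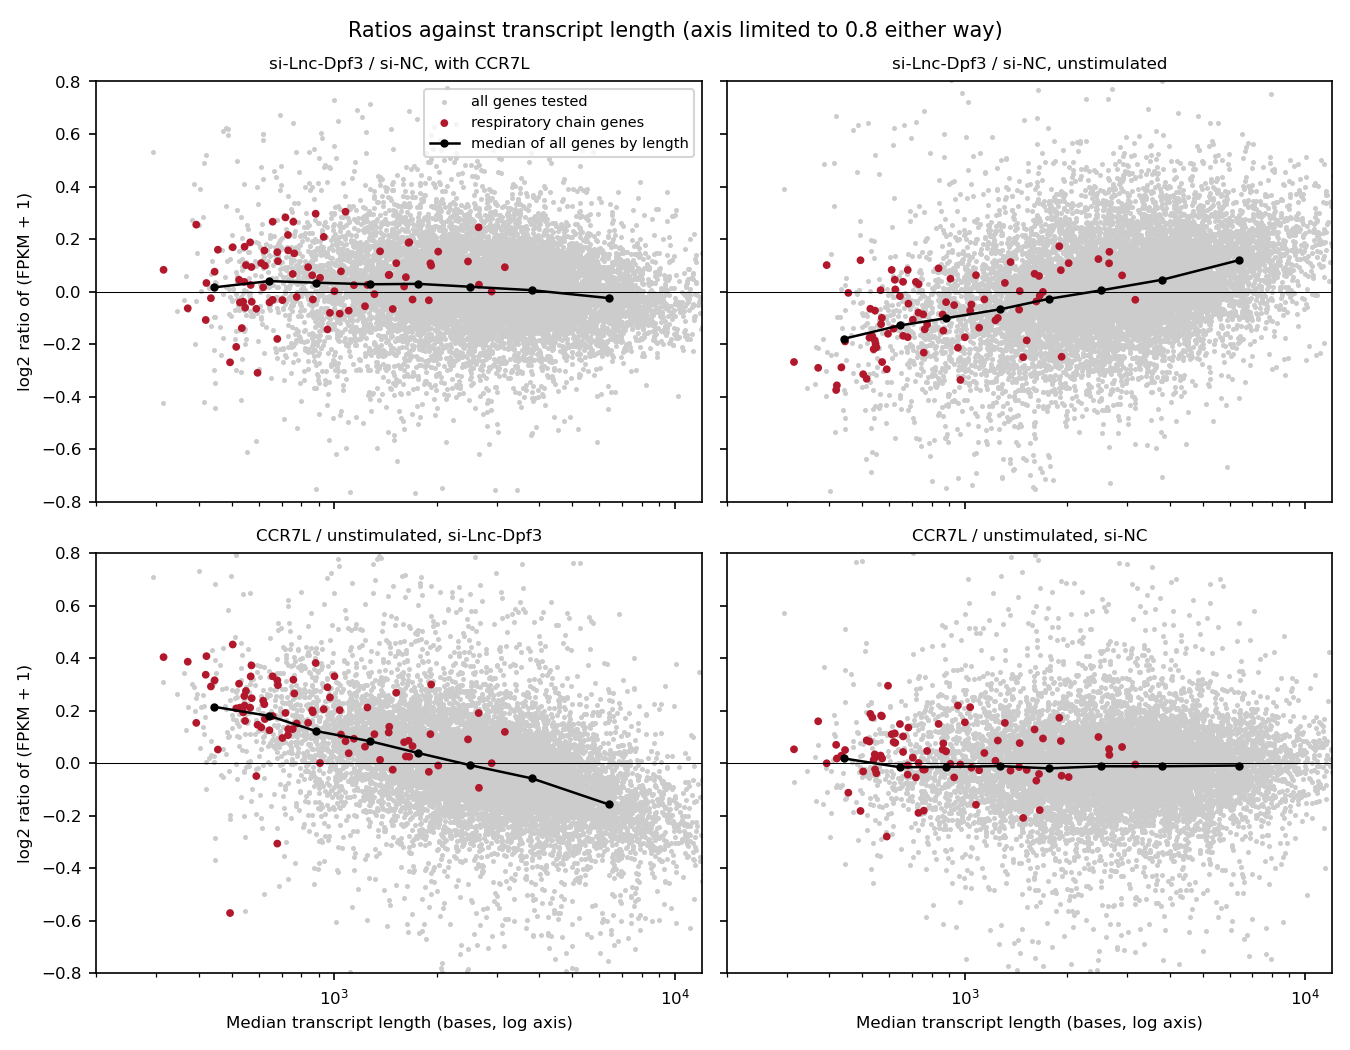
Log2 ratios of (FPKM + 1) against median transcript length in bases (log axis) in the 4 comparisons, with all genes tested in grey, the 79 respiratory chain genes in red and the median of all genes by length in black. Points beyond 0.8 either way are not drawn, and in the unstimulated siRNA comparison and in CCR7L under si-Lnc-Dpf3 the red points follow the slope of the black line.

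In the shorter length classes the medians of the chain lay close to those of all genes in the class, which include them. Under 750 bases, 39 of the 79 genes had a median CCR7L log2 ratio of 0.21 in si-Lnc-Dpf3 cells, against 0.18 for all 322 genes of that class. Their median for si-Lnc-Dpf3 against si-NC in unstimulated cells was -0.14, and that of the class -0.14. From 750 to under 1500 bases, 25 of the 79 had medians of 0.15 and -0.09 in these comparisons, and the 1557 genes of the class 0.10 and -0.08. At 1500 bases or more the medians were 0.08 and 0.06 for 15 of the 79, a thin class, and -0.04 and 0.04 for 8984 genes.

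Removing the trend, by subtracting from each library a smooth fit on length and GC content over all genes, brought the medians of the 4 comparisons close together. The CCR7L median of the 79 became 0.05 in si-Lnc-Dpf3 cells and stayed at 0.03 in si-NC cells. The si-Lnc-Dpf3 median was 0.02 with CCR7L and 0.02 in unstimulated cells, where it had been -0.07. The difference between those siRNA ratios was then above 0 for 38 of the 79 genes, with a median of -0.01. The lowest library was si-Lnc-Dpf3 unstimulated for 28 genes and si-NC unstimulated for 28 genes. The highest was most often si-Lnc-Dpf3 with CCR7L, for 34 genes, against 16 for si-Lnc-Dpf3 unstimulated, 25 for si-NC with CCR7L and 4 for si-NC unstimulated. The shares of all genes after this step were not computed, so these ranks have no background. Why length and GC move with the library was not tested.

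**Figure D5:**
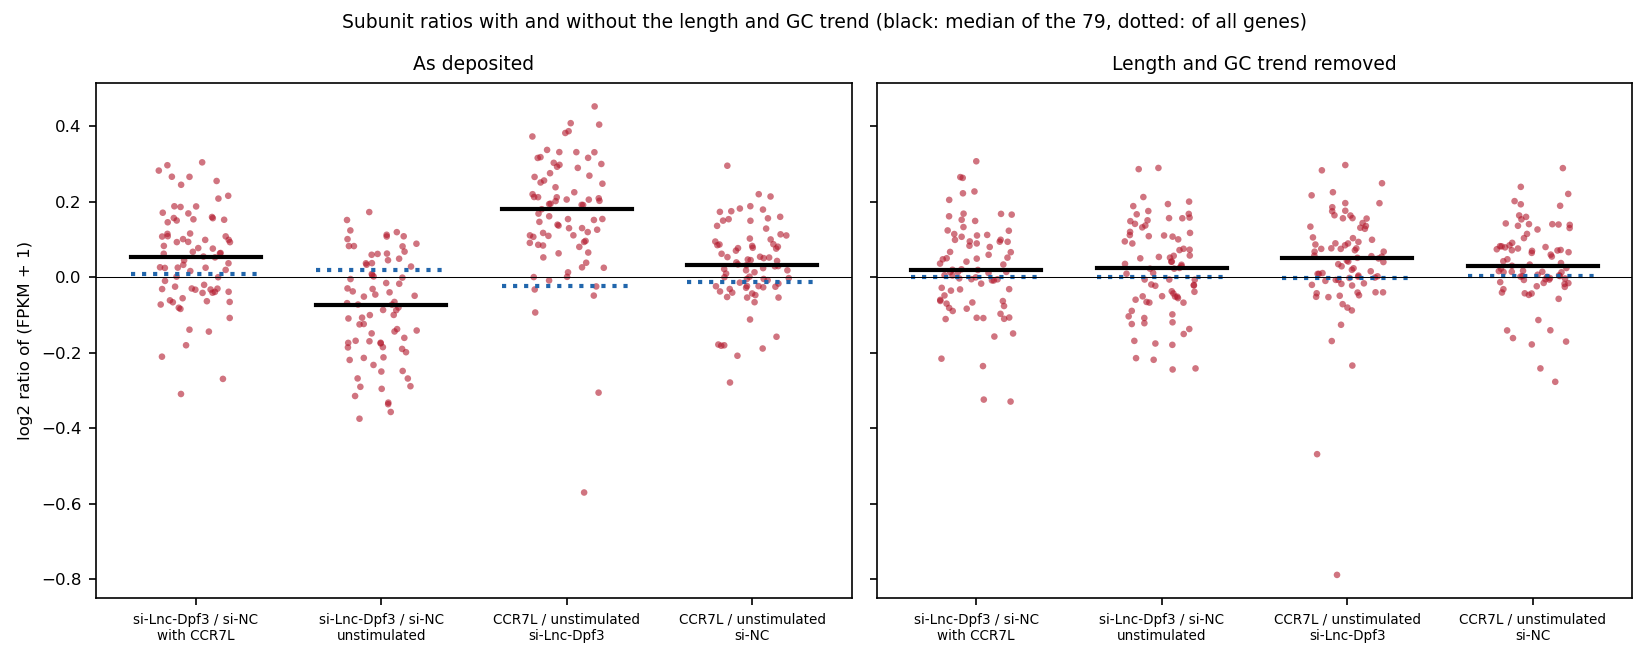
Log2 ratios of the 79 genes in the 4 comparisons, from the values as deposited and after removal of the length and GC trend. Points are genes, black bars their medians and dotted blue bars the medians of all genes, and the black bars lie between -0.07 and 0.18 on one side and between 0.02 and 0.05 on the other.

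Calls in limma were more numerous for all genes after this step, and those for the members changed with it. For CCR7L 6 of the 79 passed as higher and 2 as lower, against 6.74% and 4.97% of the 10863 genes. Atp5j2, Atp5k and Ndufs6 remained among the higher ones, with averages of 0.20, 0.15 and 0.16, joined by Cox6a1, Cox7b and Ndufc2, and Cox6b2 and Ndufa6 were the lower ones. For si-Lnc-Dpf3 7 passed as higher and 4 as lower, against 7.24% and 6.83%. Higher were Atp5g1, Atp5g3, Ndufa4, Ndufa12, Ndufb5, Ndufb6 and Uqcrfs1, and lower were Atp5j2, Ndufa1, Ndufa3 and Ndufb4. The members called are 7.59%, 2.53%, 8.86% and 5.06% of the 79 in the order given, close to or below the shares of all genes. Ndufa12, Ndufb4 and Ndufc2 are named here after their values were seen.

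Genes that build or serve the chain were counted in the same averages, where 2.33% of all genes were higher and 2.04% lower with si-Lnc-Dpf3 and 2.93% and 3.11% with CCR7L. Of 46 assembly factors tested, 0 rose and 1 fell with si-Lnc-Dpf3, and 1 rose and 0 fell with CCR7L. The one that fell was Cox17, the copper chaperone of complex IV, with 149 and 146 FPKM in si-Lnc-Dpf3 cells against 174 and 192 FPKM in si-NC cells, with and without CCR7L (-0.30 ± 0.07, limma adjusted p = 0.0364). Cox20, a chaperone for a mitochondrially encoded subunit of complex IV, rose with CCR7L, to 20.2 FPKM against 14.7 FPKM unstimulated in si-Lnc-Dpf3 cells and 23.0 FPKM against 18.4 FPKM in si-NC cells (0.37 ± 0.07, limma adjusted p = 0.0120). The median change of the assembly factors with CCR7L was 0.09, beside 0.12 for the 79 subunit genes and -0.02 for all genes.

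Among 28 genes of protein import and inner membrane organisation, Apool, a component of the cristae-organising complex, fell with si-Lnc-Dpf3 (-0.28 ± 0.07, limma adjusted p = 0.0424), 0 rose, and none passed for CCR7L. It had 19.9 and 20.6 FPKM in si-Lnc-Dpf3 cells against 24.8 and 25.01 FPKM in si-NC cells, with and without CCR7L. Of 8 carrier and uncoupling genes tested, Ucp2, the uncoupling protein of immune cells, rose with CCR7L (0.33 ± 0.07, limma adjusted p = 0.0245), to 352 FPKM against 269.6 FPKM in si-Lnc-Dpf3 cells and 293 FPKM against 243 FPKM in si-NC cells. None of the 8 passed for the siRNA. The 7 subunit genes outside the symbol rule, 13 of ubiquinone synthesis, 15 of mitochondrial biogenesis and 6 hypoxia-linked regulators gave 0 calls in either average by limma. With the length and GC trend removed the lists held more calls, as did all genes, and the genes are named here after their values were seen. Of the assembly factors, Cox20, Sdhaf1, Coa5, Pet100 and Tmem70 then passed as higher and Cox17 as lower with CCR7L, and Cox17, Uqcc2 and Pet100 as lower with si-Lnc-Dpf3. Of the import and membrane genes, Tomm40, Dnajc19, Phb and Phb2 were higher and Apool lower with si-Lnc-Dpf3, and Timm9 was lower with CCR7L. In the other lists Cyc1, Pdss1, Coq4, Slc25a5 and Ucp2 were higher with si-Lnc-Dpf3, Ucp2 was higher with CCR7L, and Higd2a and Adck4 were lower with CCR7L. As deposited, Cox17, Apool, Cox20 and Ucp2 had passed. Of 11 alternative fits, Cox17, Apool and Ucp2 passed in 4 each and Cox20 in 5. The fits that left out 1 library had a single factor and 1 library in a group. They cannot decide whether the calls of these 4 genes hold.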

How the data were processed

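RNA-seq values were read from the table the authors deposited, which holds FPKM per gene with 2 decimals per the file headers; no counts were used. Bowtie2, RSEM and the build GRCm38 are named, per the submitters' processing notes, without versions. Column names give siRNA and stimulation as abbreviations, from which each column's group was read. Genes were matched by Entrez number to RefSeq (GRCm38.p6), and length and GC content are medians over linked GENCODE transcripts, found for all 79 genes and 98.4% of those tested. Values were analysed as log2(FPKM + 1), which understates changes of low genes, over the 11041 genes averaging 1 FPKM or more. The additive model was fitted in limma 3.58.1 (R 4.3.3) with the prior variance following the mean and p-values adjusted by Benjamini-Hochberg at 0.05, and tested on simulated data. Whole fragments could not be recovered: between 60.5% and 68.2% of low values lay within 0.1 of a whole number, against 20% by chance. That 20% holds for a fixed setting, whereas depth and a length correction were chosen from a grid for the highest share. Counting intervals at 95% use the estimated depth, and arise from counting error only. The length and GC trend was fitted by loess (span 0.5, degree 1). Alternatives were a pseudocount of 0.1, no filter, equal totals, median-ratio scaling, the trend removed, no mean-variance trend, a single-factor fit and each library left out.

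The members, gene lists and tests were chosen with earlier results of these data known. Named genes follow a rule: in complexes I, III, IV and V the 2 highest and 2 lowest of each average effect, all of complex II, the highest gene of each complex, those past limma, the core and isoform genes listed beforehand, and those next to the limit. Outside the members, genes past limma in a list are named. Of the 79 genes, 1 is counted in the summaries but not reported here by name.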

Additional observations from a re-analysis of the deposited data

Results flagged for a closer look

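For 5 genes the si-Lnc-Dpf3 log2 ratio lay above 0 with CCR7L and below 0 in unstimulated cells, each beyond the counting interval; with 1 library per group the difference was not tested. The ratio with CCR7L and in unstimulated cells was 0.27 and -0.23 for Ndufs7, 0.22 and -0.0801 for Atp5g2, 0.10 and -0.21 for Cox8a, 0.0936 and -0.10 for Cox6a1, and 0.0673 and -0.0868 for Cox4i1. With the length and GC trend removed, these ratios were 0.17 and -0.10 for Ndufs7, 0.15 and 0.05 for Atp5g2, 0.02 and -0.05 for Cox8a, 0.01 and 0.06 for Cox6a1, and -0.0084 and 0.04 for Cox4i1, so that 2 of the 5 kept the opposite signs and Cox4i1 had them the other way round. Seen as CCR7L ratios in si-Lnc-Dpf3 and si-NC cells, the same libraries gave 0.32 and -0.18 for Ndufs7 and 0.11 and -0.19 for Atp5g2. These genes were taken from those named by rule, and 8 of all 79 had siRNA ratios of opposite sign beyond the interval. How many of all genes had such ratios was not computed. The median of the 79 genes likewise had opposite signs, 0.0548 with CCR7L and -0.0726 in unstimulated cells, and this difference was not tested either; with the length and GC trend removed both medians were 0.02.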

How the results depend on the processing

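No paired analysis was possible because each group has 1 library and the groups share only 1 replicate number. Removing the length and GC trend gave 7 members higher and 4 lower for si-Lnc-Dpf3, 6 higher and 2 lower for CCR7L, and 1529 and 1272 of all genes, where 482 and 667 had passed. The unstimulated siRNA median became 0.0245, the CCR7L median in si-Lnc-Dpf3 cells 0.0496, and the average siRNA median, -0.0117 as reported, 0.0128. Equal totals gave 1 higher and 2 lower for si-Lnc-Dpf3 (850 of all genes) and 5 higher and 2 lower for CCR7L (900 of all genes), with an average siRNA median of 0.00586. Median-ratio scaling gave 4 lower for si-Lnc-Dpf3 (788 of all genes) and 11 higher for CCR7L (4.67% of all genes higher). A pseudocount of 0.1 gave 1 lower for si-Lnc-Dpf3 (266 of all genes lower). Without a filter on low genes, limma called 0 genes for either effect, with 1939 and 2036 at an unadjusted p under 0.05 for si-Lnc-Dpf3 and CCR7L; the 3 CCR7L members became 0, with 9 unadjusted. They also became 0 without the mean-variance trend (12 unadjusted; 77 of all genes for si-Lnc-Dpf3) and with a single factor (9 unadjusted; 1 of all genes for si-Lnc-Dpf3 and 238 for CCR7L). Leaving out each library in turn, with a single factor, gave 0 to 0 members for CCR7L (1 to 20 unadjusted), 0 to 0 genes for si-Lnc-Dpf3 (520 to 1445 unadjusted) and 89 to 170 for CCR7L. The average siRNA median ranged from -0.11 without si-Lnc-Dpf3 with CCR7L to 0.0753 without si-Lnc-Dpf3 unstimulated. The causes were not tested. The 3 called members kept their sign in these alternatives. Counting error limits differences under about 0.1 on the log2 scale, and wide intervals leave Cox6b2, Cox6a2, Cox7a1 and Atp5s undecided at this depth.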
